A study of Homo sapiens with 12 samples.

Results

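The comparison described here sets the papillary thyroid cancer line K1 against the papillary thyroid cancer line TPC-1, both under a negative control siRNA. Its members are the 3 K1 and the 3 TPC-1 libraries whose labels give the control siRNA, 6 of the 12 libraries of the series. The other 6 libraries come from the same lines transfected with siRNA against TRIM35, a tripartite motif protein, and serve below as a second look at the line difference. All 4 groups hold 3 libraries, are given as wild type in genotype, received an siRNA and were sampled at 24 h, so no untransfected cells enter any comparison. TPC-1 is known for a CCDC6-RET rearrangement and K1 for mutations of BRAF and PIK3CA; each line is 1 tumour's cells kept in culture, so a difference between them is a difference between 2 individual lines. The labels do not say that replicates were separate cultures, and p-values measure the spread between these libraries alone, which may be technical.

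The description is ordered by what a gene product does for the cell's identity and for its exchange with neighbours. Transcription factors bind DNA and set which genes a cell transcribes, and lineage factors among them mark where a cell came from. Secreted proteins (cytokines, growth factors, matrix proteins, proteases and their inhibitors) carry signals or build the pericellular matrix, and surface receptors set which of these signals a cell can read. In papillary thyroid cancer the MAPK pathway is typically switched on by RET fusions or BRAF mutations, and inflammatory cytokines, matrix proteins and receptor tyrosine kinases are among its widely studied products.

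The control libraries held between 16705044 and 22928861 counts, and 17447 of 61806 listed genes had enough counts to be tested. A gene was called at an adjusted p under 0.05, and called with a large difference when it was also at least 4-fold apart. By edgeR's quasi-likelihood test 35.8% of the tested genes were called higher and 32.1% lower in K1, and 15.4% and 7.18% passed the 4-fold limit in those directions. For 71.8% of the tested genes the K1 and TPC-1 control libraries did not overlap. Any count below is to be read against these shares, since most genes differed between the lines. Among protein-coding genes, to which nearly all listed members belong, 11% were at least 4-fold higher and 7.42% at least 4-fold lower in K1.

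Both lines lacked most of the differentiated thyroid programme while keeping part of its regulators. Of 20 thyroid differentiation genes, 10 had a mean below 0.1 FPKM (reads scaled by gene length and by library size) in K1 and 14 in TPC-1. In each line 5 of the 20 reached 1 FPKM. Of the 9 that were tested, 7 were called higher in K1, 4 of them at least 4-fold. The other 2 were called lower in K1, 1 of them at least 4-fold. Thyroglobulin (TG) averaged 0.143 FPKM in K1 and 0.01 FPKM in TPC-1. SLC5A5, TSHR and the lineage factor NKX2-1 were at or near 0 in both lines. PAX8, which with NKX2-1 and FOXE1 drives thyroid development, measured 107, 118 and 120 FPKM in the K1 libraries and 19.6, 19.7 and 19.4 FPKM in the TPC-1 libraries. FOXE1 measured 11.8, 13.1 and 13.7 FPKM in K1 and 1.69, 1.29 and 1.49 FPKM in TPC-1. For both factors every K1 library lay above every TPC-1 library. Reads of PAX8 and its antisense gene PAX8-AS1 cannot be told apart, because the strandedness of the libraries is not given.

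Neither the epithelial nor the mesenchymal marker list was wholly present in either line. E-cadherin (CDH1) and GRHL2 averaged at most 0.01 FPKM in either line, and 9 of 20 epithelial markers in K1 and 13 in TPC-1 lay below 0.1 FPKM. Keratin KRT18 was present in both lines, at 34.8 FPKM in K1 and 41.0 FPKM in TPC-1, whereas KRT8, whose span overlaps KRT18 on the other strand, averaged 27.1 and 1.95 FPKM and claudin CLDN1 averaged 157 FPKM in K1 and 3.61 FPKM in TPC-1. Occludin (OCLN) went the other way, at 0.0567 FPKM in K1 and 0.757 FPKM in TPC-1. Of 11 tested epithelial markers 8 were called higher and 1 lower in K1. Vimentin (VIM) averaged 1180 FPKM in K1 and 585 FPKM in TPC-1. Of 21 mesenchymal and fibroblast markers 11 reached 1 FPKM in K1 and 10 in TPC-1, while 4 and 9 lay below 0.1 FPKM, among them COL1A2, COL3A1, POSTN and PRRX1 in both lines. Of the 17 tested mesenchymal and fibroblast markers 12 were called higher and 2 lower in K1, so both lists leaned to the same line. Of 14 leukocyte markers, CD14 alone reached 1 FPKM, in K1 (4.42 FPKM), and the pan-leukocyte gene PTPRC averaged 0.16 FPKM there. Of 11 endothelial markers, KDR (1.44 FPKM) and TIE1 (1.21 FPKM) reached 1 FPKM in K1 and none did in TPC-1. Of the 6 tested, 3 were called higher and 2 lower in K1. The 2 lower were ROBO4 (0.0767 against 0.517 FPKM) and TEK (0.0433 against 0.177 FPKM). CDH5, EMCN and VWF were at or near 0 in both lines.

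Among the classes as listed by hand here, secreted proteins had the largest share of members that differed. Of 697 listed secreted proteins 375 were tested, and 147 (39.2%) were at least 4-fold higher and 50 (13.3%) at least 4-fold lower in K1, with a median log2 difference of 1.22 against 0.06 over all tested genes. Surface receptors gave 109 (25.1%) higher and 54 (12.4%) lower of 434 tested (670 listed), with a median of 0.43. Transcription factors gave 77 (17.8%) higher and 47 (10.9%) lower of 433 tested (639 listed), with a median of 0.27. These medians were the same with genes that had no count in 1 line set to their lower bound. The lists were made with earlier results of these data known. Classes from the deposited GO terms gave 26.9% of secreted proteins, 25.7% of receptors and 11.9% of transcription factors at least 4-fold higher in K1. The shares lower were 11.2%, 11% and 8.93%. By those classes secreted proteins and receptors were nearly level, and transcription factors higher in K1 lay below the 15.4% over all tested genes.

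The low-count filter keeps a gene that is present in 1 line alone. The share among well expressed genes was also taken. A gene enters there too by its level in the higher line alone, so these shares carry the same selection. Among genes with a mean of at least 5 FPKM in 1 line, 6.73% of 7342 were at least 4-fold higher and 6.09% at least 4-fold lower in K1. At that level 70 of 161 secreted proteins (43.5%) were at least 4-fold higher in K1 and 14 (8.70%) lower. The receptors gave 37 (22.6%) higher and 14 (8.54%) lower of 164, and the transcription factors 24 (12.6%) higher and 12 (6.28%) lower of 191. Well expressed transcription factors thus included 36 of 191 (18.8%) with a large difference in either direction, against 88 of 242 (36.4%) of those below 5 FPKM. All tested genes showed the same fall, with 941 of 7342 (12.8%) at 5 FPKM or more against 3006 of 10105 (29.7%) below. For secreted proteins both shares were alike, at 52.2% and 52.8%.

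Measured as a share of all counts, the secreted class took 12% ± 0.699 of a K1 library and 1.67% ± 0.0769 of a TPC-1 library (SD, n = 3 each). Fibronectin (FN1) alone took 5.13% ± 0.772 in K1 and 0.24% ± 0.0386 in TPC-1, and without it the class took 6.90% ± 0.0735 and 1.43% ± 0.0515. Transcription factors took 2.35% ± 0.0446 and 1.83% ± 0.0632, and receptors 2.74% ± 0.108 and 1.98% ± 0.109, of K1 and TPC-1 libraries.

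**Figure D1:**
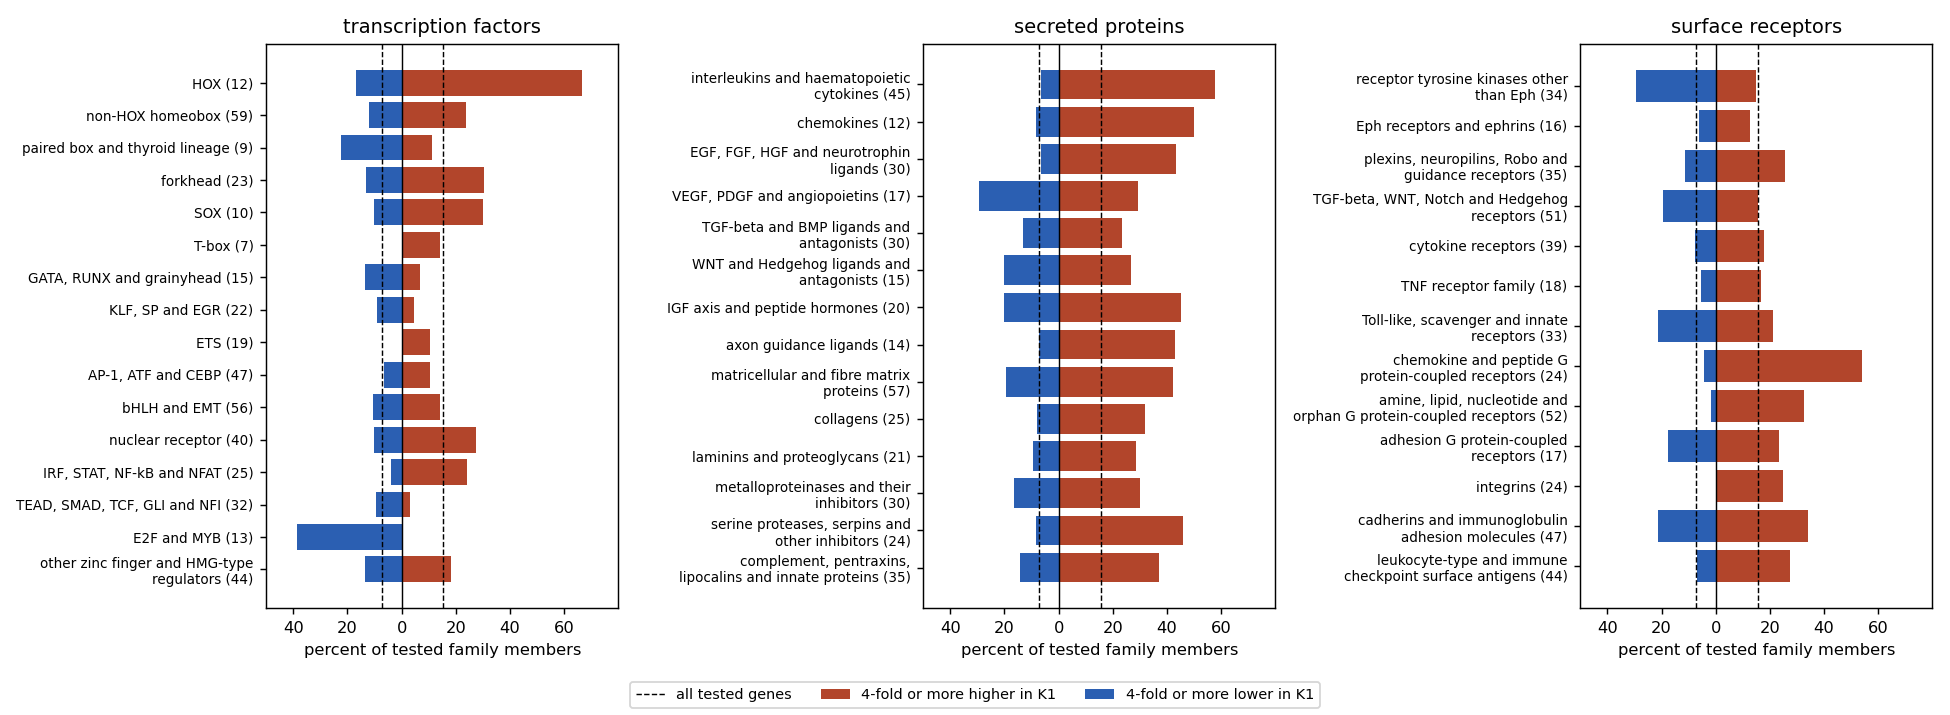
Percent of tested members of each family that were called and at least 4-fold higher (red, right) or lower (blue, left) in K1 than in TPC-1 control libraries, with the number tested in brackets and dashed lines at the shares over all tested genes (15.4% higher, 7.18% lower). HOX genes, interleukins, chemokines and peptide receptors extend farthest to the right, and the E2F and MYB family, the receptor tyrosine kinases and the VEGF and PDGF family farthest to the left.

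Among the transcription factors, developmental regulators of the forkhead, SOX, homeobox and HOX families led the K1 side. The forkhead factor FOXD1 (ENSG00000251493; hg38, chromosome 5, 73444827 to 73448777, minus strand) measured 19.2, 16.4 and 13.9 FPKM in K1 and had no count in any TPC-1 library. Against a floor of 3 counts over the TPC-1 group this is at least 820.1-fold higher. The homeobox factor MEOX1, a regulator of somite development, measured 6.67, 6.57 and 4.66 FPKM in K1 and likewise had no TPC-1 count, at least 278-fold higher. SOX17, an endoderm and endothelial factor, measured 19.3, 16 and 12.9 FPKM in K1 and at most 0.07 FPKM in TPC-1 (log2 difference 8.51, SE 0.45, adjusted p = 1.5e-10). RORA, a nuclear receptor that takes part in the circadian clock, measured 10.7, 13.1 and 17.5 FPKM in K1 and at most 0.05 FPKM in TPC-1 (8.57, SE 0.36, adjusted p = 9.2e-12). In each of these the lowest K1 library was well above the highest TPC-1 library. Also among the 8 largest differences were HOXB7, NFATC4, TBX18 and SHOX2, a limb and heart regulator whose reads cannot be told apart from those of the overlapping gene RSRC1.

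**Figure D2:**
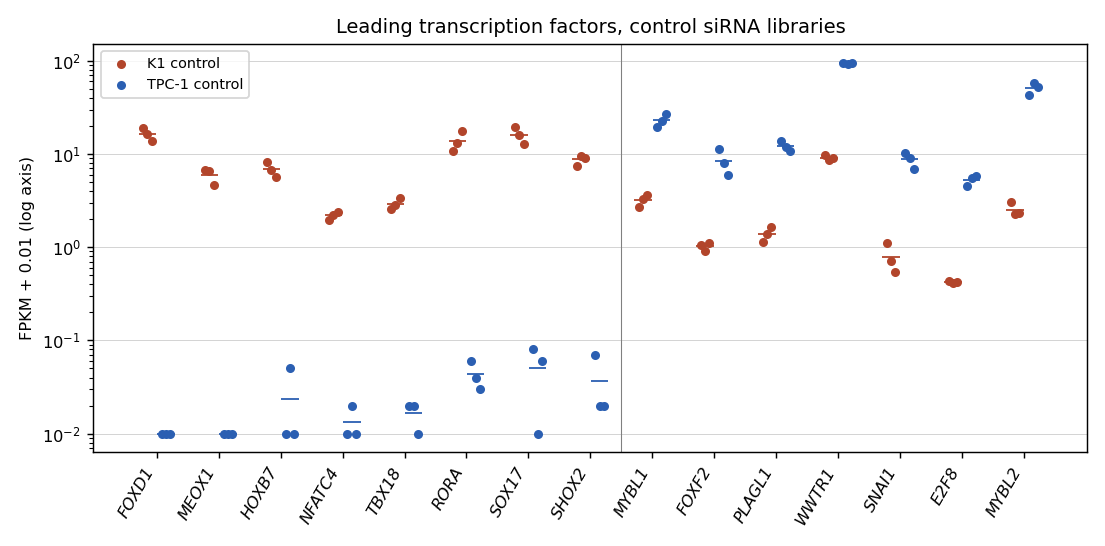
FPKM + 0.01 on a log axis in each control library for 15 of the 16 transcription factors with the largest differences (8 in either direction); points are the 3 K1 (red) and 3 TPC-1 (blue) libraries and short lines are group means. FOXD1 and MEOX1 sit at the axis floor in TPC-1. The factors lower in K1 average at least 2 FPKM in TPC-1, as the limit for naming them requires.

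HOX genes, which pattern the body axis, divided by cluster. Of 12 tested HOX genes (39 listed) 8 were at least 4-fold higher and 2 at least 4-fold lower in K1, with a median log2 difference of 3.97, or 3.70 with genes lacking a count in 1 line at their bound. The 8 were HOXB3, HOXB4, HOXB5, HOXB6, HOXB7, HOXB9, HOXD10 and HOXD11. HOXB7 measured 8.26, 6.67 and 5.71 FPKM in K1 and had 1 count over the TPC-1 group, a ratio of 545 (95% interval 97.5 to 21566, counting error only). The 2 lower genes were HOXA2 and HOXA5, the latter at 0.18, 0.36 and 0.14 FPKM in K1 and 1.79, 1.23 and 0.83 FPKM in TPC-1. Most of these levels were low, with HOXB7 alone above 2 FPKM.

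Several signal-responsive factors were higher in K1. BHLHE41, a repressor in the circadian clock, measured 53.0, 54.7 and 50.9 FPKM in K1 and 1.14, 1.07 and 1.14 FPKM in TPC-1 (5.47, SE 0.14, adjusted p = 3.7e-14). In the family of IRF, STAT, NF-kB and NFAT factors 6 of 25 were at least 4-fold higher and 1 lower, and 18 were called higher against 2 lower. These 7 large differences lay among the 14 members below 5 FPKM, and 0 of the 11 at 5 FPKM or more had one. NFKB2, an NF-kB precursor subunit, measured 20.2, 20.8 and 19.1 FPKM in K1 and 5.31, 5.12 and 5.08 FPKM in TPC-1 (1.86, SE 0.12, adjusted p = 1.5e-09). NFKB1 and RELA differed by less, at 0.59 and 0.55 on the log2 scale. Within the NFAT genes the lines were opposite: NFATC4 and NFATC2 were higher in K1, while NFATC1 averaged 1.60 FPKM in TPC-1 and had 1 count over the K1 group. Of the epithelial-mesenchymal transition factors, TWIST1 (13.5 against 1.82 FPKM) and SNAI2 (67.0 against 24.2 FPKM) were higher in K1, SNAI1 was higher in TPC-1, and ZEB1 (13.5 FPKM in both) gave adjusted p = 0.54.

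On the TPC-1 side, cell cycle regulators were among the largest differences. MYBL2, which drives genes of the G2 and M phases, measured 3.02, 2.26 and 2.29 FPKM in K1 and 43.2, 57.8 and 51.7 FPKM in TPC-1 (log2 difference -4.42, SE 0.2, adjusted p = 2.7e-11). E2F8, a target and repressor within the E2F network, averaged 0.41 ± 0.01 FPKM in K1 and 5.29 ± 0.724 FPKM in TPC-1 (-3.78, SE 0.23). Of 13 E2F, MYB and dimerization partner genes 11 were called lower in K1, 5 of them at least 4-fold, and the atypical repressor E2F7 alone was called higher (0.87). FOXM1, a forkhead factor of the same cell cycle programme, averaged 2.60 FPKM in K1 and 17 FPKM in TPC-1. All 12 proliferation markers were lower in K1 as well, with their summed level between 201 and 241 FPKM in K1 and between 974 and 980.1 FPKM in TPC-1; the part of this in the E2F and MYB levels was not tested.

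PAX2, a paired box factor of kidney development, averaged 1.71 ± 0.0473 FPKM in TPC-1 and had 1 count over the K1 group, a ratio of 744 (95% interval 133 to 29451). Of the other 8 kidney tubule markers checked, AQP1, LRP2, SLC22A6, SLC34A1 and UMOD averaged below 0.1 FPKM in both lines, and HAVCR1 is described with the receptors. CUBN was higher in K1 (0.29 against 0.02 FPKM; 3.76, SE 0.33, adjusted p = 6.7e-08), opposite to PAX2 and HAVCR1, and CDH16 averaged 0.363 FPKM in K1 and 0.64 FPKM in TPC-1. WWTR1 (also known as TAZ, a Hippo pathway co-activator) measured 9.69, 8.62 and 9.05 FPKM in K1 and 95.7, 92.0 and 94.3 FPKM in TPC-1 (-3.46, SE 0.14, adjusted p = 5.7e-12). MYC averaged 9.03 ± 1.22 FPKM in K1 and 41.5 ± 2.77 FPKM in TPC-1. DMRTA1, a DM domain factor, had no count in K1 and averaged 1.94 FPKM in TPC-1, where it was at least 240.1-fold higher.

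The most abundant transcription factors were largely the same in both lines, with 4 of the leading 5 shared. HIF1A, the oxygen-regulated subunit of hypoxia-inducible factor, averaged 259 ± 32.6 FPKM in K1 and 109.5 ± 20.6 FPKM in TPC-1 (1.14, SE 0.18, adjusted p = 4.0e-05). HMGA1, HES1 and ATF4 were also among the 5 most abundant in both lines, HMGA1 at 230.1 and 104 FPKM (1.05, SE 0.17, adjusted p = 6.7e-05). ATF4, the amino acid stress factor, measured 200.02, 182 and 154 FPKM in K1 and 241, 212 and 185 FPKM in TPC-1, with adjusted p = 0.10 and overlapping libraries.

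Among secreted proteins, the K1 side was led by a granulocyte growth factor, WNT and BMP antagonists, an alarmin, a collagenase and protease inhibitors. CSF3, the growth factor of neutrophil precursors, measured 326, 263 and 231 FPKM in K1 and 0.1, 0.18 and 0.2 FPKM in TPC-1 (log2 difference 10.65, SE 0.3, adjusted p = 1.1e-13). IL33, a nuclear alarmin of the interleukin-1 family (hg38, chromosome 9, 6215786 to 6257983, plus strand), measured 2670, 2652 and 2556 FPKM in K1 and 2.26, 2.48 and 1.92 FPKM in TPC-1 (10.11, SE 0.25, adjusted p = 3.4e-14). PI3, the elastase inhibitor elafin, measured 14.2, 12.6 and 12.9 FPKM in K1 and had no count in TPC-1, at least 125-fold higher. None of these genes had overlapping libraries between the lines.

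The antagonist GREM1, which binds BMPs, measured 128, 132 and 142 FPKM in K1 and 0.11, 0.14 and 0.12 FPKM in TPC-1 (9.98, SE 0.21, adjusted p = 1.9e-14). Its ligand BMP2 was higher in K1 too, at 80.3, 77.4 and 75.6 FPKM against 0.32, 0.28 and 0.23 FPKM (8.02, SE 0.22). The WNT antagonist SFRP1 averaged 42.0 ± 2.06 FPKM in K1 and 0.0333 ± 0.0208 FPKM in TPC-1, and SMOC1, a matricellular protein that also modulates BMP signalling, 35.9 ± 2.15 and 0.0233 ± 0.0153 FPKM. The collagenase MMP1 measured 865, 889 and 945 FPKM in K1 and 0.91, 1.02 and 1.16 FPKM in TPC-1 (9.67, SE 0.23), with the overlapping gene WTAPP1 on the other strand. SERPINB2, an inhibitor of urokinase, averaged 171 ± 6.25 FPKM in K1 and 0.207 ± 0.117 FPKM in TPC-1. Urokinase itself (PLAU), in contrast, was among the most abundant secreted transcripts of TPC-1 and differed little, at 107 FPKM in K1 and 133 FPKM in TPC-1 (-0.4, SE 0.13).

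**Figure D3:**
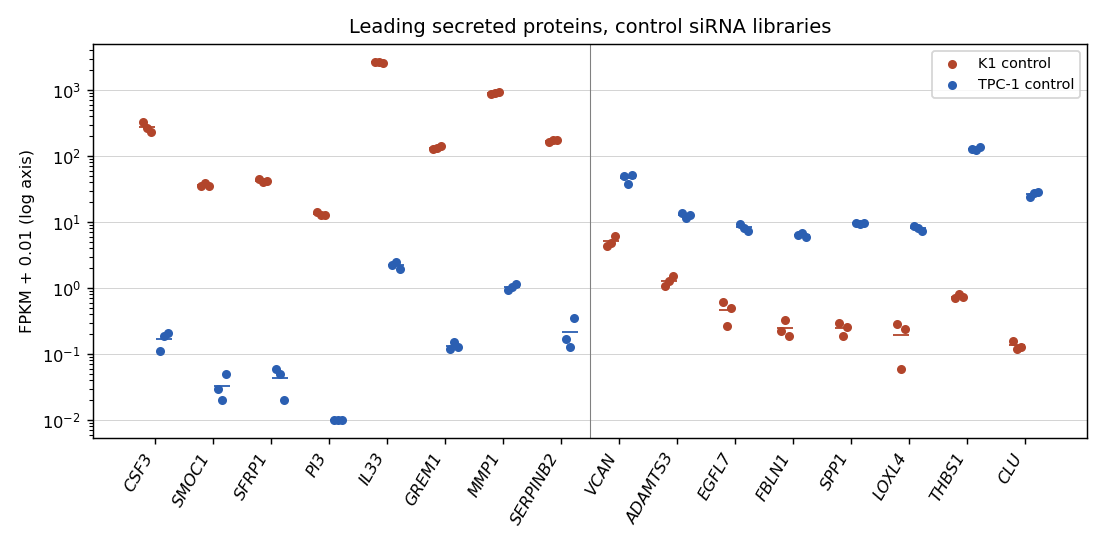
FPKM + 0.01 on a log axis in each control library for the 8 secreted proteins with the largest difference in either direction; points are libraries (K1 red, TPC-1 blue) and short lines are group means. The 8 genes higher in K1 reach from 12.6 FPKM (PI3) to 2670 FPKM (IL33) there, and THBS1 at 122 to 139 FPKM is the highest of those on the TPC-1 side.

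Interleukins and haematopoietic cytokines had the largest share on the K1 side of the secreted families over all tested members: of 45 tested (81 listed) 26 were at least 4-fold higher and 3 at least 4-fold lower, with a median log2 difference of 3.41, or 3.07 with genes lacking a count in 1 line at their bound. Among members at 5 FPKM or more chemokines had the larger share, at 6 of 7 against 12 of 18. The inflammatory cytokine IL1B measured 1199, 1105 and 1078 FPKM in K1 and 2.84, 3.16 and 2.17 FPKM in TPC-1 (8.60, SE 0.24, adjusted p = 9.2e-14). IL24 averaged 642 ± 26.3 FPKM in K1 and 0.787 ± 0.11 FPKM in TPC-1, and IL6 450.2 ± 11.6 and 17.1 ± 1.37 FPKM. The 3 cytokines at least 4-fold lower in K1 were TNFSF9, EBI3 and IFNG, of which TNFSF9 alone reached 1 FPKM. Chemokines gave 6 of 12 at least 4-fold higher (CXCL6, CXCL2, CXCL1, CXCL3, CCL3 and CCL20) and 1 lower (CX3CL1), with CXCL8 counted among the interleukins under its other name IL-8. The monocyte attractant CCL2 went the other way, at 4.21 FPKM in K1 and 13.3 FPKM in TPC-1 (-1.75, SE 0.21). CXCL1, CXCL2 and CXCL3 are close in sequence, so reads may have been shared between them. Leukocyte markers stood beside this at a summed 6.32 to 7.80 FPKM in K1 and 1.07 to 1.58 FPKM in TPC-1, with CD3E and MS4A1 at or near 0.

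Matrix genes did not all follow the same side. Fibronectin (FN1) measured 2575, 2901 and 3461 FPKM in K1 and 136, 119 and 163 FPKM in TPC-1 (4.32, SE 0.25, adjusted p = 4.6e-10), and TFPI2, a Kunitz inhibitor of plasmin bound to matrix, 3617, 3435 and 2951 against 22.5, 18.7 and 16.1 FPKM (7.36, SE 0.27). All 3 chains of type VI collagen were higher in K1, with COL6A3 at 35.4 against 0.13 FPKM. The fibrillar collagen genes COL1A1, COL1A2 and COL3A1 stayed below 0.3 FPKM in both lines. Thrombospondin (THBS1; hg38, chromosome 15, 39581079 to 39599466, plus strand), an angiogenesis inhibitor and activator of latent TGF-beta, measured 0.7, 0.79 and 0.71 FPKM in K1 and 128, 122 and 139 FPKM in TPC-1 (-7.57, SE 0.17, adjusted p = 1.9e-14). Clusterin (CLU), an extracellular chaperone, averaged 0.127 ± 0.0208 FPKM in K1 and 26.7 ± 2.28 FPKM in TPC-1. Of 57 matricellular and fibre matrix genes 24 were at least 4-fold higher and 11 lower in K1.

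Other signals on the TPC-1 side were fewer. Osteopontin (SPP1), a ligand of integrins and CD44, measured 0.29, 0.18 and 0.25 FPKM in K1 and 9.57, 9.36 and 9.59 FPKM in TPC-1 (-5.41, SE 0.18, adjusted p = 7.7e-13). IGFBP3, a carrier of insulin-like growth factors, averaged 17.7 ± 0.857 FPKM in K1 and 131 ± 16.8 FPKM in TPC-1, and TGFB2 2.38 ± 0.525 and 18.3 ± 1.28 FPKM. IGFBP1, from the same carrier family, had no count in K1 and measured 1.42, 1.36 and 1.57 FPKM in TPC-1. Angiogenic ligands were split: VEGFA (82.5 against 8.80 FPKM) and adrenomedullin (ADM) were higher in K1, while PDGFC (-1.28), PDGFA (-0.87) and ANGPTL4 were higher in TPC-1. The family gave 5 of 17 at least 4-fold in either direction. Of its 5 members at 5 FPKM or more, 2 were at least 4-fold higher and 0 lower in K1.

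The promoters of the secreted genes were read for short motifs, because AP-1 factors such as FOSL1 were abundant in both lines (138 FPKM in K1, 94.6 FPKM in TPC-1). Promoter sequences (250 bases before to 50 after the start, RefSeq, GRCh38.p14) were at hand for 10766 tested protein-coding genes, and 4.74% of them held the AP-1 motif TGANTCA on either strand. It was found in 15 of 102 promoters (14.7%) of secreted genes at least 4-fold higher in K1 and in 2 of 40 (5%) of those lower. The rest of the 147 higher and 50 lower secreted genes had no sequence at hand. Receptor genes gave 9 of 75 (12%) for those higher and 0 of 38 for those lower in K1, and transcription factor genes 4 of 54 (7.41%) and 1 of 27 (3.70%). Of the 8 leading genes per class higher in K1, 4 secreted, 4 receptor and 5 transcription factor genes had a sequence. SERPINB2 alone of these held the motif. The 4 most abundant secreted genes with a match, the 2 most abundant receptors and the only secreted gene of at least 1 FPKM with a match on the TPC-1 side are shown, 5′ to 3′ on the gene's strand, with the match in capitals.
TFPI2 (chr7:93890704-93891003, minus strand): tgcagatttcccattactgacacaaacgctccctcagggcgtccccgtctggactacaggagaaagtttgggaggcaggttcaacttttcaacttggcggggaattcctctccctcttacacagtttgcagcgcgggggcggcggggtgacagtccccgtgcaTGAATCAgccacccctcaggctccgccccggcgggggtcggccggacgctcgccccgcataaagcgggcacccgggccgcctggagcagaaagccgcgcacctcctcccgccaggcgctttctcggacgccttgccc
CXCL8 (chr4:73740319-73740618, plus strand): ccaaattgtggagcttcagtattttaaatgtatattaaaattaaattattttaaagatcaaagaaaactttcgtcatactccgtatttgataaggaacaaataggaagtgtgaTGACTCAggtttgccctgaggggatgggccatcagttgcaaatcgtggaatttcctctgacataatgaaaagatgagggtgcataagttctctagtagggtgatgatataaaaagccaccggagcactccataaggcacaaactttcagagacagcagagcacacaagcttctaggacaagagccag
SERPINB2 (chr18:63887455-63887754, plus strand): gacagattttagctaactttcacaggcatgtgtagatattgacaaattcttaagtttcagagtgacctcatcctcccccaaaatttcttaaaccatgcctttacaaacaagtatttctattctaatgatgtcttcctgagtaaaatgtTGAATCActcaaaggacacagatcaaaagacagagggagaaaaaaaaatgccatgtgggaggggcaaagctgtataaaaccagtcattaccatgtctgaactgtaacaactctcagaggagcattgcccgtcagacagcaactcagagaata
IL1A (chr2:112784444-112784743, minus strand): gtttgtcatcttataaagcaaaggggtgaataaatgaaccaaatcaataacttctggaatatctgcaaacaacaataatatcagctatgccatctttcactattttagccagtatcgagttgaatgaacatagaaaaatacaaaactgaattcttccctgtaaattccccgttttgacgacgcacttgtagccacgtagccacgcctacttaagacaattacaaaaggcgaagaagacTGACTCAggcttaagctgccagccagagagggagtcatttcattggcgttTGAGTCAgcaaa
F3 (chr1:94541710-94542009, minus strand): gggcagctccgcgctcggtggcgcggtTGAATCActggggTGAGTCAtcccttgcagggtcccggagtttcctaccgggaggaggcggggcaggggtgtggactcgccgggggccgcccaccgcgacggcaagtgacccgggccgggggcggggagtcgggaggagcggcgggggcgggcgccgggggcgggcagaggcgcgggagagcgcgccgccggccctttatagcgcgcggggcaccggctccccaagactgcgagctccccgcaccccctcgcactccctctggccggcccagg
IL1RL1 (chr2:102337007-102337306, plus strand): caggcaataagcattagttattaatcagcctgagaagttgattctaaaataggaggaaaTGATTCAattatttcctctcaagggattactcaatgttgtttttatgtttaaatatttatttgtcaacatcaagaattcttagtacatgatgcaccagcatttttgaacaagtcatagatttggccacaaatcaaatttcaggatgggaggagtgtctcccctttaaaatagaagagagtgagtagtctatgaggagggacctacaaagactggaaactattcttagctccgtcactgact
MFAP2 (chr1:16981534-16981833, minus strand): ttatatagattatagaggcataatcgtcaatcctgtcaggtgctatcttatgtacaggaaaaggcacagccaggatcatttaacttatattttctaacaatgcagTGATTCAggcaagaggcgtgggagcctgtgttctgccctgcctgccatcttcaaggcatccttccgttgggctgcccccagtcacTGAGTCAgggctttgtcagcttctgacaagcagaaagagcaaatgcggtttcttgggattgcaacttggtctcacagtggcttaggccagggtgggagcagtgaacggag
The first base of the match lay at -87 from the start in TFPI2, -137 in CXCL8 and -102 in SERPINB2. IL1A, F3 and MFAP2 held 2 matches. A loose form of the NF-kB site, GGG followed by any 5 bases and CC, was found in 72.9% of all these promoters and in 63.7% of the secreted genes at least 4-fold higher in K1. The TEAD motif GGAATG, also searched on both strands, gave 10.8% and 12.7%. The 3 motifs were picked after expression values had been seen, and a match is a run of letters, not a measured site. Matches of these motifs can share bases at their edges.

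The mRNAs behind these promoters differed widely in level. SERPINB2 and IL1A were nearly absent from TPC-1, at 0.207 and 0.347 FPKM, whereas CXCL8 was well expressed in both lines, at 2832, 2562 and 2450 FPKM in K1 and 49.1, 51.6 and 46.8 FPKM in TPC-1. MFAP2, a microfibril protein, had 2.43 FPKM in TPC-1 and 0.0267 FPKM in K1. Tissue factor (F3), the receptor that starts coagulation, averaged 32.1 FPKM in K1 and 4.14 FPKM in TPC-1.

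Surface receptors with the largest differences spanned adhesion molecules, peptide receptors and stem cell markers. CD200, an immune-inhibitory ligand of the immunoglobulin family, measured 8.92, 10.04 and 10.4 FPKM in K1 and had no count in TPC-1, at least 497-fold higher. The bradykinin receptor BDKRB2 measured 58.4, 63.3 and 62.2 FPKM in K1 and 0.08, 0.07 and 0.06 FPKM in TPC-1 (9.61, SE 0.27, adjusted p = 1.1e-13). The inducible second bradykinin receptor, BDKRB1, averaged 7.82 ± 0.258 FPKM in K1 with 1 count over the TPC-1 group. VCAM1, the adhesion partner of leukocyte integrins, measured 67.1, 70.3 and 72.4 FPKM in K1 and 0.04, 0.1 and 0.14 FPKM in TPC-1 (9.43, SE 0.23, adjusted p = 2.8e-14). LGR5, the R-spondin receptor known as a stem cell marker, averaged 34.2 ± 4.47 FPKM in K1 and 0.0667 ± 0.0551 FPKM in TPC-1. Thrombomodulin (THBD; 333 ± 13.0 against 0.977 ± 0.131 FPKM) and DNER (137 ± 6.11 against 0.763 ± 0.0208 FPKM) were also among the 5 most abundant receptors of K1. All of these K1 libraries lay above all TPC-1 libraries.

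**Figure D4:**
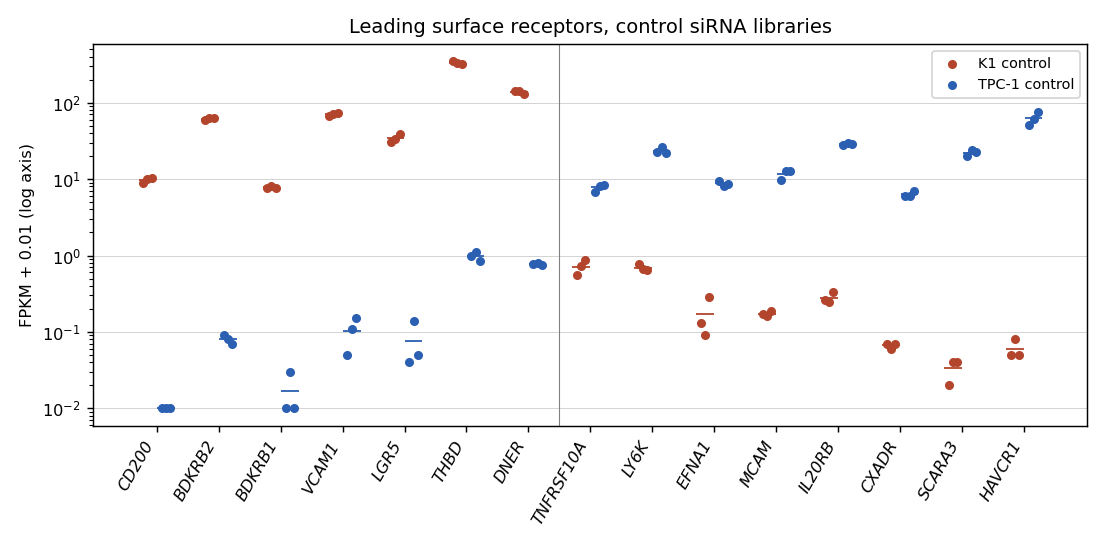
FPKM + 0.01 on a log axis in each control library for 15 of the 16 surface receptors with the largest differences (8 in either direction); points are libraries (K1 red, TPC-1 blue) and short lines are group means. THBD is the highest of the K1 side at 321 to 347 FPKM and HAVCR1 the highest of the TPC-1 side at 51.2 to 76.2 FPKM.

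Chemokine and peptide receptors that differed lay mostly on the K1 side. Of 24 tested (70 listed) 13 were at least 4-fold higher and 1 lower, and 10 had no large difference. In all, 18 were called higher and 1 lower. Most were weakly expressed, and of the 6 at 5 FPKM or more 4 were at least 4-fold higher and 0 lower. Beside the bradykinin receptors the better expressed were the oxytocin receptor OXTR (13.9 against 0.743 FPKM), the scavenging chemokine receptor ACKR3 (8.63 against 0.433 FPKM) and CXCR4 (2.71 against 0.0267 FPKM). Of 52 amine, lipid, nucleotide and orphan receptors 17 were at least 4-fold higher and 1 lower, among them the prostaglandin receptor PTGFR at 8.24 against 0.117 FPKM. Both ligands of the checkpoint receptor PD-1 were higher in K1. CD274 (PD-L1) measured 51.4, 61.4 and 73.6 FPKM in K1 and 1.77, 2.30 and 2.62 FPKM in TPC-1 (4.69, SE 0.19, adjusted p = 8.4e-12). Its neighbour PDCD1LG2 (PD-L2) averaged 17.7 and 1.38 FPKM (3.57, SE 0.16, adjusted p = 2.1e-11). The co-stimulatory ligand TNFSF9 went the other way, at 5.55 and 22.5 FPKM. The aminopeptidase ANPEP and the TNF family ligand CD70 averaged 58.4 and 10.2 FPKM in K1 and 0.34 and 0.12 FPKM in TPC-1. Of 44 leukocyte-type and checkpoint antigens 12 were at least 4-fold higher and 3 lower.

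Of 39 cytokine receptors 7 (17.9%) were at least 4-fold higher and 3 (7.69%) lower in K1, close to the shares over all genes. The shared signalling chain IL6ST averaged 38.7 and 33.95 FPKM and the interleukin-1 co-receptor IL1RAP 2.09 and 2.24 FPKM in K1 and TPC-1, and neither was called. The decoy receptor IL13RA2 averaged 35.1 FPKM in K1 and 0.203 FPKM in TPC-1. The IL33 receptor IL1RL1 measured 4.16, 4.39 and 5.66 FPKM in K1 and had 1 count over the TPC-1 group, a ratio of 1367 (95% interval 245 to 54045).

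Over all tested members, receptor tyrosine kinases had more genes on the TPC-1 side, though most of the differing genes were weakly expressed. Of 34 tested 10 (29.4%) were at least 4-fold lower and 5 (14.7%) at least 4-fold higher in K1. The 10 lower genes were RET, its co-receptor GFRA1, FGFR2, FGFR3, FGFR4, NTRK3, MERTK, ROR2, PDGFRB and the sorting receptor SORT1, which the list holds beside the kinases. GFRA1 measured 0.01, 0.03 and 0.02 FPKM in K1 and 4.82, 4.78 and 5.27 FPKM in TPC-1 (-8.14, SE 0.25, adjusted p = 2.6e-13), and RET averaged 0.08 and 4.66 FPKM. Gene-level counts do not show which part of RET the reads cover. The kinases that were abundant in both lines differed less: AXL averaged 55.0 ± 2.89 FPKM in K1 and 122 ± 5.6 FPKM in TPC-1 (-1.25, SE 0.13), MET 39.9 and 50.7 FPKM, and EGFR 19.97 ± 2.64 and 10.1 ± 1.29 FPKM (0.88, SE 0.15). Of the 5 on the K1 side (NTRK2, KDR, PDGFRA, TIE1 and ERBB3) KDR and TIE1 alone reached 1 FPKM, and of the 10 on the TPC-1 side FGFR2, FGFR3, FGFR4, NTRK3 and ROR2 averaged below 1 FPKM there. Of the 8 members at 5 FPKM or more, SORT1 alone differed by at least 4-fold.

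The TPC-1 side of the receptor list was led by HAVCR1 (KIM-1, a phosphatidylserine receptor best known from injured kidney tubule; hg38, chromosome 5, 157026742 to 157069396, minus strand). It measured 0.04, 0.07 and 0.04 FPKM in K1 and 51.2, 61.0 and 76.2 FPKM in TPC-1 (-10.36, SE 0.32, adjusted p = 2.8e-13). The scavenger receptor SCARA3 averaged 0.0233 ± 0.0115 FPKM in K1 and 22.0 ± 2.02 FPKM in TPC-1, and CXADR, a tight junction protein used by coxsackie- and adenoviruses, 0.0567 ± 0.00577 and 6.35 ± 0.612 FPKM. IL20RB, a chain of the receptors for IL20 and IL24, measured 0.25, 0.24 and 0.32 FPKM in K1 and 27.5, 29.6 and 28.7 FPKM in TPC-1 (-6.84, SE 0.16, adjusted p = 1.9e-14). The adhesion molecule MCAM averaged 0.163 and 11.7 FPKM and overlaps CBL on the other strand. None of these receptors had overlapping libraries between the lines. CD44 and ITGB1, the most abundant receptors of both lines, averaged 210 and 123 FPKM in K1 and 167 and 136 FPKM in TPC-1, with adjusted p = 0.20 and 0.17.

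Genes confined to 1 line were counted by level: called, at least 5 FPKM in the higher line, under 0.1 FPKM in the lower and with no overlap. Of 7342 genes at 5 FPKM or more, 97 (1.32%) met this for K1 and 27 (0.368%) for TPC-1. Among the K1 genes were 7 transcription factors (FOXD1, MEOX1, HOXB7, RORA, SOX17, SHOX2 and POU2F2), 7 secreted proteins (SFRP1, SMOC1, PI3, CXCL6, FGFBP1, GPNMB and IL18) and 9 receptors (CD200, BDKRB1, BDKRB2, VCAM1, LGR5, IL7R, NRCAM and THY1 among them). On the TPC-1 side there were no transcription factors or secreted proteins and 3 receptors (HAVCR1, SCARA3 and CXADR). Those members of the classes make up 26 of the 124 genes.

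Ligands and receptors were then read together, as 89 pairs known to bind, counting a gene as present at a mean of at least 1 FPKM. Both members were present in both lines for 15 pairs, in K1 alone for 11, in TPC-1 alone for 9, and together in neither line for 54. Presence of both mRNAs says nothing of protein or of signalling. In K1 alone, IL33 met IL1RL1, RSPO3 (3.01, 3.32 and 2.61 FPKM) met LGR5, IL7 met IL7R and VEGFA met KDR. The K1 calls of IL11 with IL11RA (1.01 FPKM) and SLIT2 with ROBO1 lay close to the limit. In TPC-1 alone, GDNF met GFRA1, SPP1 met CD44, EFNA1 met EPHA2 and FGF1 met FGFR1. GDNF itself was higher in K1, at 26.4, 26.8 and 30.2 FPKM against 1.37, 2.04 and 1.74 FPKM (3.91), so ligand and receptor of this pair lay on opposite sides.

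At the 1 FPKM limit the pair IL24 and IL20RB was divided, with the ligand present in K1 alone (642 FPKM) and the receptor chain in TPC-1 alone (28.6 FPKM). IL24 averaged 0.787 FPKM in TPC-1, so at a limit of 0.5 FPKM both were present there. For several of the most abundant K1 ligands neither line had the receptor tested. CSF3R, CXCR1 and CXCR2 averaged at most 0.0233 FPKM in either line, against 273 FPKM of CSF3 and 2615 FPKM of CXCL8 in K1. Pairs with both members in both lines included IL1B with IL1R1, HBEGF with EGFR, LIF with LIFR, and GAS6 with AXL. In these the ligand differed more than the receptor for IL1B (8.60 against 1.69) and LIF (3.41 against -0.35), while no test compared those differences.

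**Figure D5:**
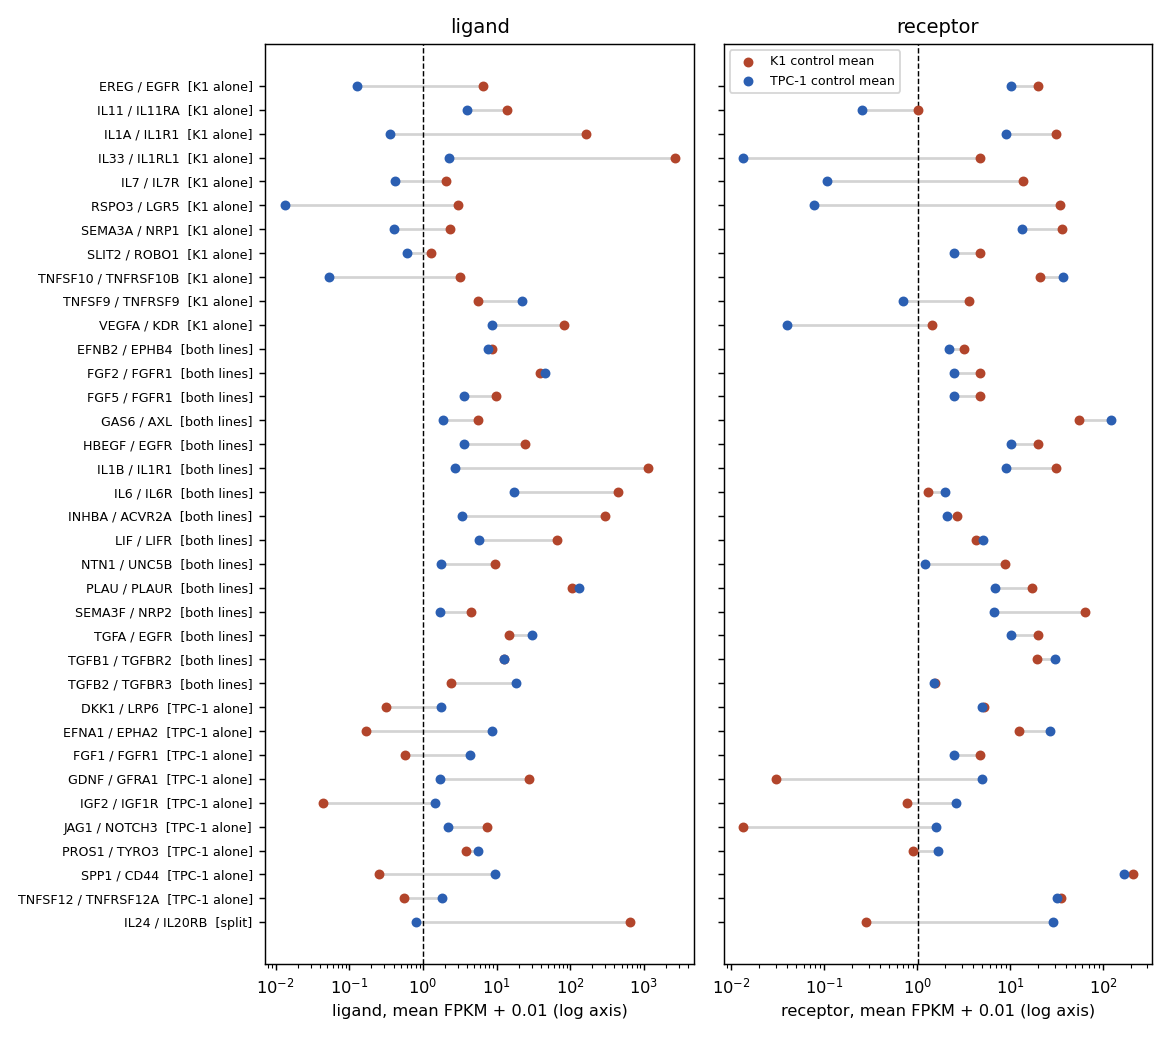
Mean FPKM + 0.01 on log axes of the ligand (left) and the receptor (right) in K1 (red) and TPC-1 (blue) control libraries for the 35 pairs present in at least 1 line and the divided pair IL24 and IL20RB, with the dashed line at the 1 FPKM limit. IL1B shows the widest ligand gap among the pairs present in both lines, at 1127 FPKM in K1 and 2.72 FPKM in TPC-1.

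The 6 TRIM35 siRNA libraries gave the same picture when fitted by themselves. TRIM35 averaged 2.94 FPKM in control and 2.49 FPKM in siRNA libraries of TPC-1, and 1.61 and 1.41 FPKM in K1, so these libraries stayed close to control in the targeted mRNA. Of the 2707 genes at least 4-fold higher in K1 in the 6 control libraries fitted alone, 2407 (88.9%) were called so in the siRNA libraries, which is 89.4% of the 2693 called there. The background of such calls in the siRNA libraries was 15.4% higher and 7.16% lower. On the TPC-1 side 1122 of 1248 genes (89.9%) were shared. For the classes the shared calls were 70 of 77 transcription factors, 141 of 147 secreted proteins and 106 of 109 receptors on the K1 side. They were 43 of 47, 48 of 49 and 52 of 54 on the TPC-1 side. All 48 leading genes (8 per class and direction) were called with the same sign. They were picked as the largest differences between these lines, so this adds little. Over all genes, 3 of the 2707 large control calls higher in K1 and 1 of the 1248 lower had the opposite sign there. A test of whether the line difference itself changed with the siRNA called 0 genes by edgeR (301 at an unadjusted p under 0.05), and 2 by DESeq2. The siRNA libraries are other libraries of the same lines and series, and the labels set no batch apart, so this is no second experiment.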

How the data were processed

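RNA was sequenced from 12 libraries of TPC-1 and K1 cells, in groups of 3. The tools named by the submitters' processing notes are cutadapt 1.9.1 and build hg38. Aligner, counter, annotation release and strandedness: not given in the sources used here. Raw read counts and FPKM per gene, for 61806 genes, are what the authors deposited. The deposited FPKM equal the counts over gene length and the library's summed counts, as checked on the files. The counts summed to between 16705044 and 22928861 per library; intervals and the floor of 3 counts cover counting error only. The title of TPC-1 control library 3 names another line, its other labels name TPC-1, and it was kept. The labels set no batch apart, so no batch comparison was possible.

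The main test was edgeR's quasi-likelihood test (version 4.0.16, R 4.3.3) on counts of the 17447 genes that filterByExpr left, scaled by TMM. The model had a mean for each of the 4 groups and took in all 12 libraries (8 residual degrees of freedom), with Benjamini-Hochberg adjustment over all genes tested. Standard errors are the absolute log2 fold change over the square root of F. FPKM, which include gene length, gave levels and presence. The scripts were tested on simulated data. Deviations of same-numbered K1 and TPC-1 libraries did not all correlate above 0.1, so the main test did not pair by number. Those numbered 3 correlated at 0.125, and this limit cannot show that same-numbered libraries shared nothing. No 2 control libraries of a line agreed within sampling noise.

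Transcription factors (639), secreted proteins (697) and surface receptors (670) were listed by hand in 43 families, with 89 ligand and receptor pairs and 12 marker lists. These members and lists were chosen with earlier results of these data known. The named genes are, per class, the 8 largest differences in each direction among genes called, at 5 FPKM or more (2 FPKM for transcription factors) and with no overlap; the 4 smallest adjusted p per family at 1 FPKM or more; the 5 most abundant per line; members of pairs; and thyroid markers. Other genes named were chosen after their values were seen, and a few genes that these rules select are not reported here. Alternatives were the 6 control libraries alone, other scalings, DESeq2 1.42.0, limma 3.58.1 on log2(FPKM + 0.1), other filters and limits, a replicate block and leaving out each library. Promoters came from RefSeq (GRCh38.p14). Near-identical copies may share reads.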

Additional observations from a re-analysis of the deposited data

How the results depend on the processing

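Counts of at least 4-fold differences kept to within 1.5 times the reported ones with the 6 control libraries alone, DESeq2's size factors, total counts, DESeq2, limma and no filter. With genes of at least 1 FPKM alone, where fewer genes are tested, transcription factors gave 48 higher and 26 lower in K1, secreted proteins 29 lower, and receptors 71 and 35. At a 2-fold limit transcription factors gave 134 and 87 and receptors 165 and 91; at a 16-fold limit the counts were 38 and 19, 85 and 20 for secreted proteins, and 57 and 31 for receptors. Line-restricted genes numbered 243 for K1 and 78 for TPC-1 with at least 2 against under 0.1 FPKM, and 185 and 67 with at least 5 against under 0.5 FPKM. With a limit of 2 FPKM the pairs present in TPC-1 alone fell from 9 to 3 (11 and 10 in K1 alone at 2 and 0.5 FPKM). The difference of the line contrast between siRNA and control gave 2 genes by DESeq2, 4 with no filter, and between 0 and 1 over fits that left out a control library, the 1 gene without K1 library 3. The cause of these last differences was not tested.

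Leaving out each control library gave 5733 to 6138 genes called higher and 5038 to 5417 called lower in K1, 75 to 81 and 45 to 47 transcription factors, 142 to 155 and 47 to 52 secreted proteins, and 106 to 111 and 55 to 57 receptors. The replicate block gave 6172 and 5506 called genes, 77 and 47 transcription factors, 147 and 50 secreted proteins, and 109 and 53 receptors. Deviations of same-numbered libraries correlated at -0.000057, -0.026 and 0.125, and not every library correlated best with its own number. Of 3214 values of named genes under alternatives, 3177 kept direction and side of the threshold, 22 lost and 6 gained a call, and 9 changed sign. The sign changes were in 2 uncalled genes. CCN1 went from -0.08 to 0.015 with total counts, 0.026 with limma and 0.011 at 1 FPKM or more, and lay between -0.156 and 0.086 over fits leaving out a library; TGFBR3 went from -0.05 to 0.049, 0.058 and 0.043, and between -0.175 and 0.097. FOSL1 and HES1, both called at a small difference, lost the call in 4 and 3 of the 6 fits that left out a library. The median log2 difference of all tested genes was 0.06, and 0.16 with total counts. Classes taken from the deposited GO terms, chosen after the data were seen, gave 11.9% of 1042 transcription factors, 26.9% of 802 secreted proteins and 25.7% of 409 receptors at least 4-fold higher in K1, and 8.93%, 11.2% and 11% lower. Depth limits the fold changes of genes with no or few counts in 1 line, as for PAX2 with its interval of 133 to 29451.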

Other observations

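Of 304 members at least 4-fold different and at 1 FPKM or more, 52 lay in 21 runs, in which neighbours that differed in the same direction were at most 200 kb apart. In 13 of the 21 runs every tested gene of the span differed by at least 4-fold in that direction. In most of the 13 the members were the only tested genes, so the outcome was fixed by their selection. Among the 13, only the spans of HOXB3, HOXB6 and HOXB7, of BDKRB2 and BDKRB1, and of SCG5 and GREM1 held other tested genes. On chromosome 2 (112773925 to 113278921, hg38) the 5 members IL1A, IL1B, IL36G, IL1RN and PAX8 were all at least 4-fold higher in K1, as were 9 of the 10 tested genes of that span and none lower. The chemokine genes CXCL8, CXCL6, CXCL1, CXCL3 and CXCL2 on chromosome 4 (73740519 to 74099196) gave 5 of 6 tested genes, MMP10, MMP1 and MMP3 on chromosome 11 gave 3 of 3, and the span of HOXB3, HOXB6 and HOXB7 on chromosome 17 gave 6 of 6. The bradykinin receptor genes BDKRB2 and BDKRB1 on chromosome 14 lay in a span where 7 of 7 tested genes were at least 4-fold higher in K1. In other spans fewer were, as in those of CD70, C3 and ADGRE1 (4 of 7), NCAM1 and DRD2 (5 of 7), MICB and TNF (3 of 5) and CSF3 and NR1D1 (2 of 4). On the TPC-1 side TIMD4 and HAVCR1 (chromosome 5), IGFBP1 and IGFBP3 (chromosome 7) and CLU and SCARA3 (chromosome 8) were neighbours. These members were the only tested genes of their spans, as were those of the MMP span. These spans were picked from the members that differed, so the counts are a description.

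Genes outside the 3 lists, picked here after their values were seen, were also confined to 1 line. TNFAIP6, a hyaluronan-binding protein, measured 86.2, 84.3 and 76.5 FPKM in K1 and at most 0.11 FPKM in TPC-1 (log2 difference 9.82, SE 0.28). LRRC15, a membrane protein known from cancer-associated fibroblasts, measured 26.4, 28.8 and 31.4 FPKM in K1 and at most 0.05 FPKM in TPC-1. TIGIT, a checkpoint receptor of T and NK cells, measured 7.7, 9.08 and 10.2 FPKM in K1 and at most 0.02 FPKM in TPC-1, while CD3E was at or near 0 in K1 and NKG7 averaged 0.22 FPKM. LSAMP, a neural adhesion molecule, averaged 16.3 FPKM in K1 and 0.0167 FPKM in TPC-1. In TPC-1 the translation factor EEF1A2, whose usual sites are muscle and neurons, measured 21.2, 29.4 and 26.1 FPKM against at most 0.05 FPKM in K1 (-9.77, SE 0.29), and the stress protein NUPR1 13.3, 13.3 and 10.2 FPKM against at most 0.1 FPKM.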
